A study of Mus musculus with 35 samples.

Results

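The BCL2 family decides whether the mitochondrial route to apoptosis opens, and 10 of its genes were followed here in mouse hematopoietic cells carrying NUP98-HOXA9 or mutants of it. The genes were taken by symbol from the 49671 genes of the count table. That rule uses no measured value, but the members were chosen with earlier results of these data known. They comprised 5 prosurvival members (Bcl2, Bcl2l1, Mcl1, Bcl2a1b and Bcl2a1d), 2 effectors (Bax and Bak1) and 3 BH3-only members (Bcl2l11, Bbc3 and Pmaip1). All 10 passed the filter on low counts, and the fewest reads that any of them had in any library was 415.

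The study asked which features of the fusion oncoprotein NUP98-HOXA9 are needed for its effects in blood progenitors. Lineage-negative (lin-) hematopoietic stem and progenitor cells came from the bone marrow of C57Bl/6 mice of both sexes, were transduced with lentivirus, sorted for the fluorescent proteins, and cultured for 1 week in methylcellulose (Methocult M3434), to which GM-CSF was added at 10 ng/mL. RNA was sequenced from 5 libraries for each of 7 conditions. The vector without a fusion gene (Empty) carried mCherry alone, and all other cells were sorted for mCherry and for mEGFP fused to the construct. G-NHX9 is the full-length fusion, in which an intrinsically disordered stretch of NUP98 with many phenylalanine-glycine (FG) motifs and a GLEBS domain is joined to the HOXA9 homeodomain. G-NHX9-8FA has 8 phenylalanines changed to alanine, and G-NHX9-21FGAA has 21 FG motifs changed to a pair of alanines. G-NHX9-midi keeps a shortened part of the FG region without the GLEBS domain, G-NHX9-midi-21FGAA is that protein with its FG motifs removed by the 21 substitutions, and G-NHX9-DDNA has a homeodomain mutated to weaken its binding to DNA. The construct is expressed from the vector on top of the normal alleles of these cells. The labels give an age of 8 weeks for all samples but Empty replicate 4 (9 weeks), Empty replicate 5 (10 weeks) and G-NHX9 replicate 1 (11 weeks). They do not say whether libraries of one condition came from separate animals, so p-values measure the spread between these libraries, which may be technical.

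In a living cell the prosurvival proteins hold the effectors BAX and BAK in check. BH3-only proteins are the stress sensors of the family: they bind the groove of the prosurvival proteins through a short helix, the BH3 domain, and free or directly activate the effectors, which then permeabilize the outer mitochondrial membrane. In the blood system MCL1 is required for the survival of stem cells, BCL-XL (Bcl2l1) for erythroid cells and platelets, and A1 (the Bcl2a1 genes) is prominent in neutrophils and mast cells, while BIM (Bcl2l11) sets the response to loss of cytokine.

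The short stretch that defines the family is shown because all 3 functional groups share it. Each line gives 36 coding bases around the BH3 core from GENCODE M21 transcripts on GRCm38. Capitals mark the codon of the conserved leucine and the paired codons for glycine or alanine and for aspartate. The search pattern had no match in Bcl2a1b and Bcl2a1d, and Pmaip1 was not searched.
Bcl2, chr1:106712575-106712610, minus strand: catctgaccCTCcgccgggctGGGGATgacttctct
Bcl2l1, chr2:152829697-152829732, minus strand: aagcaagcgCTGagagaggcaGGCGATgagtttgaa
Mcl1, chr3:95659427-95659462, plus strand: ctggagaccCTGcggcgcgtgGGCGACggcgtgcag
Bax, chr7:45465997-45466032, minus strand: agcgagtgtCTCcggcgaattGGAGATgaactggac
Bak1, chr17:27022531-27022566, minus strand: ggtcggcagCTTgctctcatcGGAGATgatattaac
Bcl2l11, chr2:128147141-128147176, plus strand: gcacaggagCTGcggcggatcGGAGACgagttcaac
Bbc3, chr7:16313764-16313799, plus strand: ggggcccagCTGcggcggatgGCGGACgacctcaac

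The Bcl2a1 genes are near copies of each other, which limits how their reads can be told apart. Over the 519 coding bases, Bcl2a1b and Bcl2a1d differed at 6 positions (98.8% identical), Bcl2a1a and Bcl2a1d at 7 (98.7%), and Bcl2a1a and Bcl2a1b at 11 (97.9%). Of all windows of 100 transcript bases, 31.1% in Bcl2a1b, 54.7% in Bcl2a1d and 43.5% in Bcl2a1a also occurred in another copy, and of all windows of 150 bases 14.2%, 30.3% and 28.2%. The labels give paired reads of 100 cycles, and the 150-base windows show the shares that longer reads would meet. The first 90 coding bases hold 6 of the differing positions, given here in capitals. The bases after the last of them are the same in each line, but the stretch is shorter than a read of 100 cycles.
Bcl2a1a, chr9:88957051-88957140, plus strand: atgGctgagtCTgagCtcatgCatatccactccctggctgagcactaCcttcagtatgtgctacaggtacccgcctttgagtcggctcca
Bcl2a1b, chr9:89199360-89199449, plus strand: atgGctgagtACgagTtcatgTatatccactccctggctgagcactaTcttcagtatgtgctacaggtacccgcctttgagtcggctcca
Bcl2a1d, chr9:88731630-88731719, minus strand: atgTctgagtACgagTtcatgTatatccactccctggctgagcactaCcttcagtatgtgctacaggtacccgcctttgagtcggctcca

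Library totals ran from 31559914 to 75810659 counts, and 17166 genes were tested. Levels are given as CPM, the counts of a gene relative to its library total after scaling by TMM factors. A gene was called at an adjusted p under 0.05 in the quasi-likelihood test of edgeR, with adjustment after Benjamini and Hochberg over all tested genes. The 6 comparisons against Empty share the same 5 Empty libraries. After the week in culture, markers of late neutrophils outweighed those of stem and progenitor cells in every condition. Summed levels, not scaled by length, were 5658 to 33771 CPM for 10 neutrophil genes against 222 to 702 CPM for 8 stem and progenitor genes. The 4 T cell genes summed to 0.797 to 1.56 CPM in Empty. Among them Cd3e and Cd8a had at most 3 counts in every Empty library, and Cd3g and Cd4 did not. Markers of several lineages moved with the constructs. Their levels are given after the Bcl2a1 genes.

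Against Empty, the members that moved were mostly lower. The exceptions were Bcl2, higher in G-NHX9, G-NHX9-8FA and G-NHX9-midi, Bbc3, higher in G-NHX9-midi, and Pmaip1, higher in G-NHX9. G-NHX9 changed 7 of the 10 members, 2 higher and 5 lower, where 32.1% of all tested genes were called (16.9% higher and 15.2% lower). In G-NHX9-midi 2 members were higher and 3 lower, where 40.5% of all genes were called (20.5% higher and 20.0% lower). In G-NHX9-21FGAA 5 were lower, where 27.1% of genes were called (14.7% higher and 12.5% lower). G-NHX9-8FA had 1 higher and 2 lower, beside 26.6% of genes (13.4% higher and 13.2% lower). G-NHX9-DDNA had 2 lower, beside 17.2% of genes (9.85% higher and 7.35% lower), and G-NHX9-midi-21FGAA had 1 lower, beside 16.9% of genes (9.59% higher and 7.32% lower). Without the 3 libraries whose label gives an age over 8 weeks, a choice made after seeing the data, the count fell to 4 for G-NHX9 and to 0 for both G-NHX9-DDNA and G-NHX9-midi-21FGAA. Without TMM scaling the median of all genes against Empty moved from near 0 to between 0.08 and 0.19 on the log2 scale, and the share of called genes that were higher rose from 52.5% to 75.4% in G-NHX9 and from 57.3% to 82.5% in G-NHX9-DDNA.

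**Figure D1:**
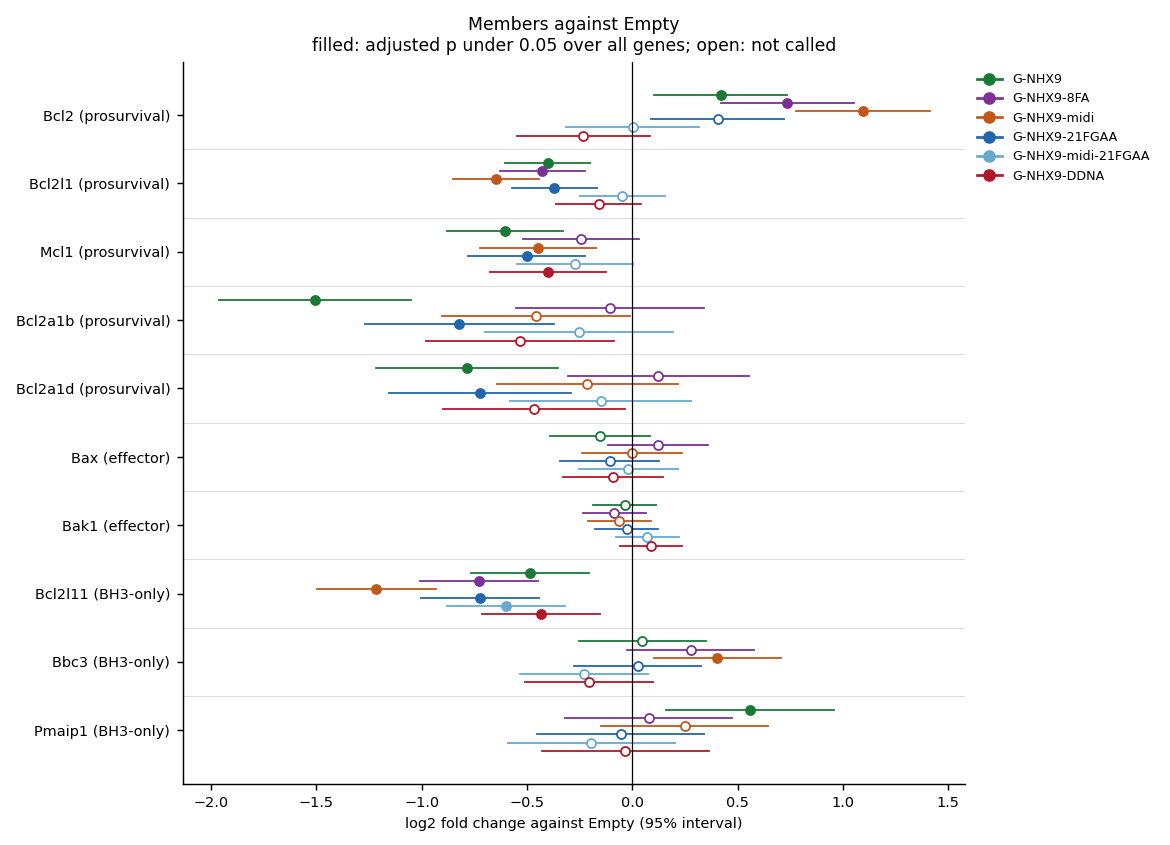
Log2 fold change of each BCL2 family member (rows, with role) against Empty, with the 95% interval; colours are the 6 constructs, filled points were called over all genes and open points were not. Bcl2l11 has 6 filled points left of 0, Bax and Bak1 have none filled, and Bcl2 is the only prosurvival member with filled points right of 0.

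Levels of different members were compared per kilobase of exon, except in the ratio of Bcl2 to Bcl2l11 and the read share of Bcl2a1b at the end. On that scale Mcl1 stood first in Empty cells, at 258.5 ± 17.8 CPM per kb (SD, n = 5), followed by Bcl2a1b at 82.6 ± 21.0. Bax was at 63.6 ± 8.60, Bcl2a1d at 48.1 ± 9.65, Bak1 at 37.5 ± 2.04 and Bcl2l1 at 24.1 ± 3.67 CPM per kb. The lowest members were Pmaip1 at 17.0 ± 3.61, Bcl2l11 at 10.3 ± 1.54, Bbc3 at 7.44 ± 1.199 and Bcl2 at 4.91 ± 1.23 CPM per kb. Bcl2 was thus the least abundant of the 10 transcripts by length-scaled level in Empty cells, and Mcl1 the most abundant. The order between depends on the length used: per kilobase of the longest transcript, a choice made after seeing the data, Bax (91.2 ± 12.3) stood above Bcl2a1b (82.6) and Bcl2l1 (43.0 ± 6.56) above Bak1 (37.8), while Mcl1 remained first and Bcl2 last (6.25 ± 1.57).

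Bcl2, the founding prosurvival gene, rose in 3 constructs and most in G-NHX9-midi. It lies on chromosome 1 from 106538178 to 106714274 (GRCm38, minus strand) and shares exon bases with D630008O14Rik on the opposite strand, and whether strand decided the counting is not given in the sources used here. In Empty cells it was at 46.3, 61.6, 45.8, 40.8 and 30.3 CPM in replicates 1 to 5. The same replicates of G-NHX9-midi held 113, 99.4, 99.1, 82.8 and 85.3 CPM, so that no G-NHX9-midi library overlapped an Empty library. The rise in G-NHX9-midi was 2.13-fold (log2 fold change 1.09 ± 0.16 SE, adjusted p = 9.48e-07). G-NHX9-8FA libraries held 90.6, 75.7, 88.4, 54.4 and 65.3 CPM, with 4 of 5 above every Empty library (log2 fold change 0.74 ± 0.16, adjusted p = 0.000515). G-NHX9 libraries held 70.1, 63.5, 63.0, 53.3 and 50.9 CPM, a 1.34-fold rise (log2 0.42 ± 0.16, adjusted p = 0.0362) in which the highest Empty library reached into the G-NHX9 range.

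Bcl2 was not called in the construct without FG motifs, in that with a mutated homeodomain, or in G-NHX9-21FGAA. G-NHX9-midi-21FGAA held 37.1, 51.9, 44.6, 37.3 and 54.0 CPM, all within the Empty range, and the interval of its log2 fold change ran from -0.31 to 0.32. G-NHX9-DDNA held 36.5, 34.2, 35.6, 36.8 and 48.1 CPM (log2 -0.23 ± 0.16, adjusted p = 0.323). G-NHX9-21FGAA held 72.7, 52.2, 61.8, 48.8 and 62.2 CPM, with an adjusted p of 0.05004 that just missed the threshold (log2 0.40 ± 0.16). That call is a borderline one: it passed without Empty replicate 2 (0.00851) and without G-NHX9-21FGAA replicate 2 (0.0326) or 4 (0.0364), and also with DESeq2 (0.0387), RLE size factors (0.0405), a minimum mean of 1 CPM (0.0301), Xist as a covariate (0.0417) and no TMM scaling (0.0028). The call of Bcl2 in G-NHX9 was likewise lost without any of Empty replicates 1, 3, 4 and 5 or G-NHX9 replicates 1, 2 and 3 (adjusted p of 0.0560 to 0.145), and without the 3 libraries labelled older its log2 fold change was 0.16 (adjusted p = 0.500).

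Bcl2l1, which encodes BCL-XL, moved the other way from Bcl2 and fell in 4 constructs. It lies on chromosome 2 from 152780668 to 152831728. Empty libraries held 99.1, 97.1, 109, 108 and 139 CPM in replicates 1 to 5, and G-NHX9-midi libraries 70.4, 56.8, 69.7, 81.5 and 74.4 CPM. The groups did not overlap, and the fall was by 0.65 ± 0.10 on the log2 scale (adjusted p = 3.29e-06). Falls of 0.43 in G-NHX9-8FA (adjusted p = 0.0014), 0.40 in G-NHX9 (0.00203) and 0.37 in G-NHX9-21FGAA (0.00554) were also without overlap, every construct library lying below every Empty library. G-NHX9-midi-21FGAA libraries lay between 102.6 and 110.3 CPM and G-NHX9-DDNA libraries between 92.3 and 107 CPM, and neither was called (adjusted p = 0.793 and 0.284). Without TMM scaling the falls in G-NHX9 and G-NHX9-21FGAA were -0.22 and -0.19, beside a median of all genes of 0.19 and 0.16, and were no longer called (adjusted p = 0.0703 and 0.148). They were also not called without the 3 libraries labelled older (adjusted p = 0.0683 and 0.0938).

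Mcl1, the most abundant prosurvival transcript, fell in 4 constructs with the largest change in G-NHX9. It lies on chromosome 3 from 95658788 to 95663176. Empty libraries held 964, 832, 899, 814 and 908 CPM, and G-NHX9 libraries 721, 566, 639, 509 and 472 CPM, without overlap (log2 fold change -0.60 ± 0.14, adjusted p = 0.000808). G-NHX9-21FGAA (754, 686, 641, 551 and 488 CPM) and G-NHX9-midi (777, 557, 598, 737 and 572 CPM) also lay below every Empty library, with log2 fold changes of -0.50 (adjusted p = 0.00603) and -0.45 (adjusted p = 0.0084). G-NHX9-DDNA, at 734, 662, 658, 619 and 672 CPM, did too (log2 -0.40, adjusted p = 0.038). This last call was lost without any of Empty replicates 1, 2, 3 and 5 or G-NHX9-DDNA replicates 2, 3, 4 and 5 (adjusted p of 0.0509 to 0.0887), without the 3 libraries labelled older (0.0627), and without TMM scaling (log2 -0.27, adjusted p = 0.104). G-NHX9-midi-21FGAA (602 to 942 CPM; log2 -0.27, adjusted p = 0.171) was not called, but with the replicate number as a block, where the numbers pair the libraries, it was (log2 -0.29, adjusted p = 0.0306). In G-NHX9-8FA the level was 546 to 872 CPM (log2 -0.24, adjusted p = 0.197).

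The Bcl2a1 genes encode A1, and Bcl2a1b had the widest difference between condition means of the 10 members, 2.84-fold higher in Empty than in G-NHX9. Bcl2a1b (chromosome 9 from 89199209 to 89207827, overlapping Gm29094 on the same strand) was at 73.9, 93.3, 64.9, 55.9 and 49.5 CPM in Empty and at 26.2, 27.4, 37.7, 15.3 and 12.5 CPM in G-NHX9. Every G-NHX9 library lay below every Empty library, and the fall was by 1.51 ± 0.22 on the log2 scale (adjusted p = 3.58e-06). Bcl2a1d (chromosome 9 from 88723285 to 88731914) was at 44.8, 54.1, 39.9, 32.995 and 35.8 CPM in Empty and at 26.9, 28.5, 36.3, 15.6 and 13.3 CPM in G-NHX9, so that 4 of 5 libraries lay below Empty (log2 -0.78 ± 0.21, adjusted p = 0.00454). In G-NHX9-21FGAA both copies fell without overlap, Bcl2a1b to between 27.5 and 42.6 CPM (log2 -0.82, adjusted p = 0.00572) and Bcl2a1d to between 16.2 and 30.6 CPM (log2 -0.72, adjusted p = 0.0108). The Bcl2a1d call was lost without G-NHX9-21FGAA replicate 5 (log2 -0.57, adjusted p = 0.0551). No call was made for either copy in the other 4 constructs, and the log2 fold changes of Bcl2a1b were -0.11 in G-NHX9-8FA, -0.25 in G-NHX9-midi-21FGAA, -0.46 in G-NHX9-midi and -0.53 in G-NHX9-DDNA. The call for Bcl2a1b in G-NHX9-midi appeared without replicate 4 of that construct (adjusted p = 0.0478) without the 3 libraries labelled older (0.0379), and with Xist, which marks female cells, as a covariate (log2 -0.60, adjusted p = 0.0073). With that covariate Bcl2a1b was also called in G-NHX9-DDNA (log2 -0.48, adjusted p = 0.0496).

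Because reads can match several copies, the counts of Bcl2a1a, Bcl2a1b, Bcl2a1c and Bcl2a1d were also summed. The summed level was 150.3 ± 33.1 CPM (SD, n = 5) in Empty, 62.9 ± 25.2 CPM in G-NHX9 and 87.1 ± 15.5 CPM in G-NHX9-21FGAA. The sum fell by 1.26 in G-NHX9 (adjusted p = 1.87e-05) and by 0.79 in G-NHX9-21FGAA (adjusted p = 0.00487) on the log2 scale, and it was not called in the other 4 constructs. In G-NHX9-8FA it was at 146.8 ± 38.3 CPM, close to Empty.

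Lineage markers moved beside these differences. In bulk RNA, fewer cells of a type and less RNA per cell cannot be told apart. The 10 mast cell and basophil markers, all in the table, summed to between 1395 and 3750 CPM in Empty, and to 805 to 1042 in G-NHX9 (7 of 10 lower), 706 to 1032 in G-NHX9-8FA (7 lower) and 561 to 1005 in G-NHX9-midi (8 lower). They reached 3613 to 5001 CPM in G-NHX9-21FGAA (5 higher), 2781 to 6813 in G-NHX9-midi-21FGAA (5 higher) and 2779 to 4111 in G-NHX9-DDNA (1 higher). Both the Bcl2a1 genes and these markers fell in G-NHX9, the Bcl2a1 genes fell in G-NHX9-21FGAA where 5 markers were higher, and in G-NHX9-8FA and G-NHX9-midi the markers fell while neither Bcl2a1 gene was called. The 10 late neutrophil markers summed to 8979 to 12865 CPM in Empty, 8458 to 14479 in G-NHX9 (3 lower), 15205 to 33771 in G-NHX9-8FA (5 higher), 10195 to 21701 in G-NHX9-midi (3 higher, 3 lower), 7143 to 13028 in G-NHX9-21FGAA (2 lower), 5658 to 12636 in G-NHX9-midi-21FGAA (2 lower) and 11548 to 20117 in G-NHX9-DDNA (2 higher, 2 lower). None of these markers was at 3 counts or fewer in every library of a condition, and their part in the results was not tested.

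For Bcl2l1, the markers of both lineages named above were read. Of the 12 erythroid markers 11 were in the table, and they summed to 305 to 863 CPM in Empty, 293 to 763 in G-NHX9 (0 called), 113 to 154 in G-NHX9-8FA (10 lower), 139 to 200.1 in G-NHX9-midi (9 lower), 564 to 2088 in G-NHX9-21FGAA (6 higher), 716 to 1819 in G-NHX9-midi-21FGAA (8 higher) and 615 to 1995 in G-NHX9-DDNA (3 higher). The 7 megakaryocyte markers summed to 794 to 1415 CPM in Empty, 379 to 916 in G-NHX9 (3 lower), 307 to 386 in G-NHX9-8FA (7 lower), 144 to 261 in G-NHX9-midi (7 lower), 1193 to 2387 in G-NHX9-21FGAA (2 higher), 878 to 1447 in G-NHX9-midi-21FGAA (0 called) and 729 to 1625 in G-NHX9-DDNA (0 called). Bcl2l1 thus fell together with both lists in G-NHX9-8FA and G-NHX9-midi, with megakaryocyte markers alone in G-NHX9, and in G-NHX9-21FGAA where markers of both lists were higher. Their part in the fall of Bcl2l1 was not tested.

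Other lineage lists moved as well. The 7 eosinophil markers summed to 1299 to 1790 CPM in Empty, 265 to 967 in G-NHX9 (4 lower), 64.4 to 268 in G-NHX9-8FA (6 lower) and 35.7 to 111 in G-NHX9-midi (6 lower, 1 higher), against 731 to 2472 in the other 3 constructs (1 higher in each). The 5 early granulocyte markers summed to 126 to 583 CPM in Empty and 186 to 458 in G-NHX9-midi-21FGAA (0 called), and to between 594 and 2075 in the other 5 constructs (3 to 5 higher). Eosinophil markers were thus lowest in G-NHX9-midi, the construct with the highest Bcl2 and the lowest Bcl2l11. The mean sums of megakaryocyte (214 CPM), mast cell and basophil (807 CPM) and macrophage markers (1913 CPM) were lowest there too. Those of erythroid, early granulocyte, late neutrophil and stem and progenitor markers were not. The 10 macrophage markers summed to 2734 to 3553 CPM in Empty and to 1318 to 3066 in the constructs, with 7 lower in G-NHX9-midi, 3 higher and 3 lower in G-NHX9, and 1 to 4 lower in the others. Among them C1qa had at most 3 counts in every library of Empty and of G-NHX9-midi. The 8 stem and progenitor markers summed to 222 to 313 CPM in Empty and to 259 to 702 in the constructs, with 3 to 6 higher and at most 1 lower. Kit is in both this list and that of mast cells and basophils, so their sums are not independent. The part of these lists in the results was not tested.

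**Figure D2:**
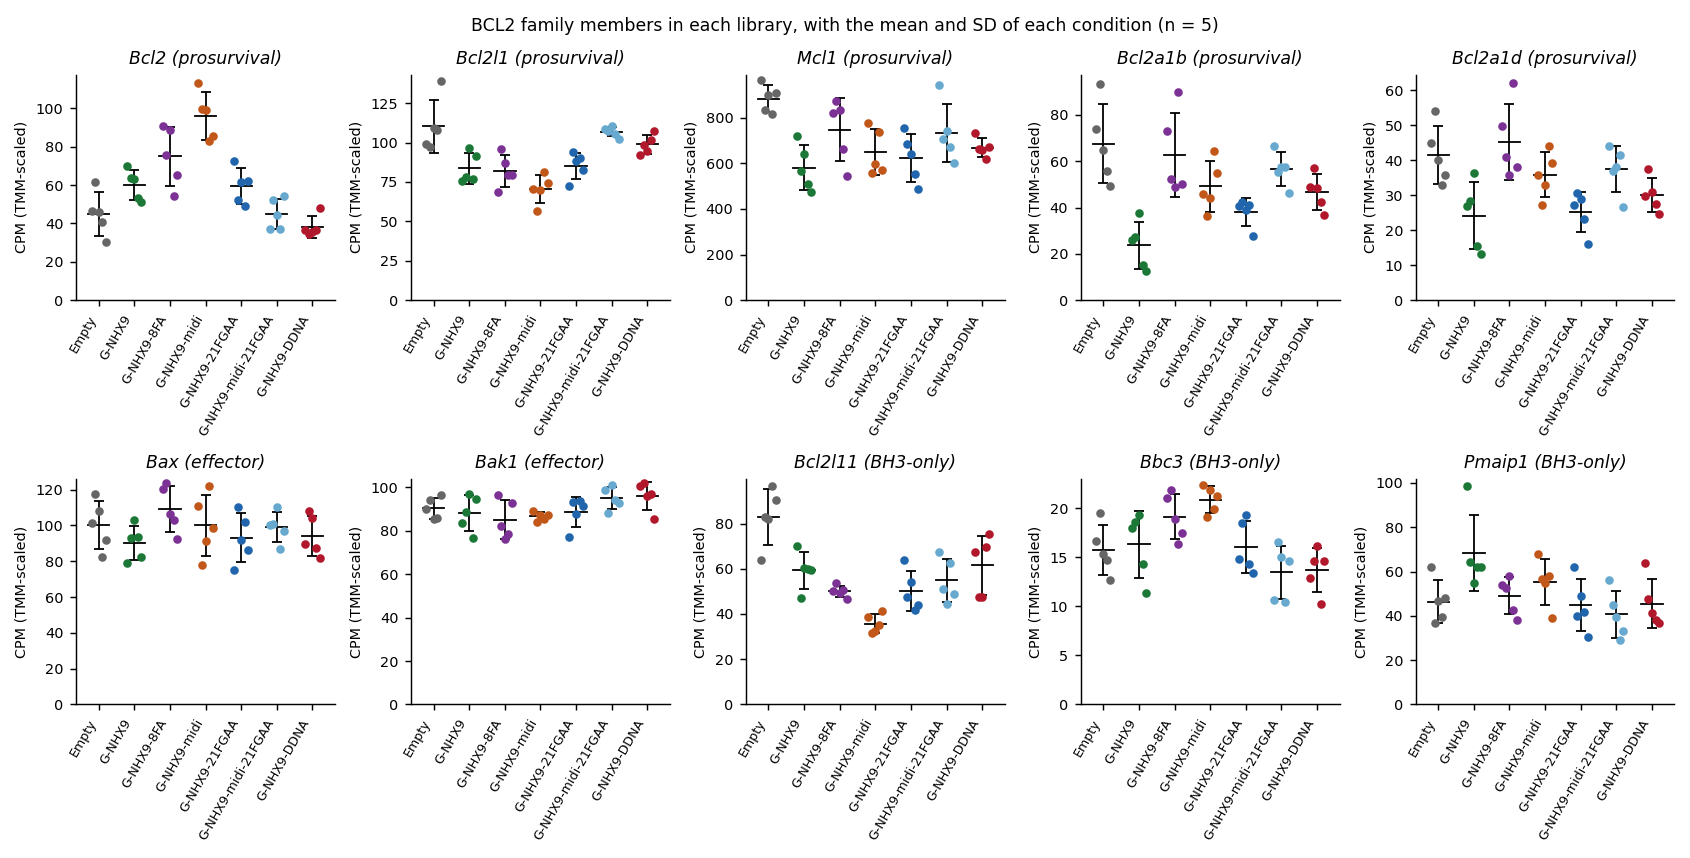
Level of each BCL2 family member in TMM-scaled CPM (vertical axis, starting at 0) in the 5 libraries of each condition (points, replicates 1 to 5 from left to right), with the mean and SD in black. Bcl2 is highest and Bcl2l11 lowest in G-NHX9-midi, Bcl2a1b is lowest in G-NHX9, and Bax and Bak1 overlap in all 7 conditions.

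The effectors had the smallest spread of condition means among the members. Bax (chromosome 7 from 45461697 to 45466898, overlapping Gm45808 on the same strand) ranged from 75.2 to 124 CPM over all 35 libraries, and its highest condition mean was 1.21 times its lowest. Bak1 (chromosome 17 from 27019810 to 27029009, sharing exon bases with Ggnbp1 on the opposite strand) ranged from 76.3 to 102 CPM, and its highest mean was 1.13 times its lowest. Neither was called in any of the 6 comparisons against Empty, which held for 39.9% of all tested genes. Their log2 fold changes lay between -0.15 and 0.12 for Bax and between -0.09 and 0.09 for Bak1. The widest intervals ran from -0.39 to 0.08 for Bax in G-NHX9 and from -0.11 to 0.36 for Bax in G-NHX9-8FA. Without TMM scaling Bak1 was called higher in G-NHX9-DDNA (log2 0.22, adjusted p = 0.0338) and in G-NHX9-midi-21FGAA (0.21, adjusted p = 0.0423).

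Bcl2l11, which encodes the BH3-only protein BIM, was lower than in Empty in all 6 constructs, a pattern held by 0.961% of all tested genes. It lies on chromosome 2 from 128126038 to 128162547 (plus strand). Empty libraries held 63.7, 82.8, 82.0, 96.5 and 90.4 CPM in replicates 1 to 5. G-NHX9-midi libraries held 38.9, 31.4, 32.3, 35.1 and 41.2 CPM, which was 0.431 times the Empty level (log2 fold change -1.21 ± 0.14, adjusted p = 1.75e-08). These 5 libraries lay below every library of all other conditions, and among the members this was the only step in the order of condition means at which neighbouring conditions did not overlap.

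The other falls of Bcl2l11 were smaller. G-NHX9-8FA libraries held 50.4, 53.6, 49.2, 50.5 and 46.8 CPM, all below Empty (log2 -0.73 ± 0.14, adjusted p = 0.000136). G-NHX9-21FGAA libraries held 63.8, 47.6, 54.2, 41.7 and 44.2 CPM (log2 -0.72, adjusted p = 0.000241) and G-NHX9-midi-21FGAA libraries 67.3, 51.0, 44.5, 62.5 and 49.0 CPM (log2 -0.60, adjusted p = 0.00345). In each of these constructs 4 of 5 libraries lay below every Empty library. G-NHX9 libraries held 69.8, 47.0, 60.5, 59.7 and 59.3 CPM (log2 -0.49, adjusted p = 0.00624), again with 4 of 5 below Empty. G-NHX9-DDNA libraries held 67.6, 47.5, 47.5, 69.8 and 75.3 CPM (log2 -0.43, adjusted p = 0.0272), and 3 of these lay inside the Empty range. The G-NHX9-DDNA call was lost without any of Empty replicates 2, 3, 4 and 5 or G-NHX9-DDNA replicates 2 and 3 (adjusted p of 0.0510 to 0.0950), and without TMM scaling the calls in G-NHX9 and G-NHX9-DDNA were lost (log2 -0.31 and -0.30, adjusted p = 0.0602 and 0.1002, beside a median of all genes of 0.19 and 0.12). Without the 3 libraries labelled older Bcl2l11 was called in 4 of the 6 constructs, and not in G-NHX9-midi-21FGAA (adjusted p = 0.0548) or G-NHX9-DDNA (0.191).

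The promoter sequences were searched because the constructs carry the homeodomain of HOXA9. RefSeq (GRCm38.p6) gave 14 promoters for 9 members, each read over 250 bases before a start site, and Pmaip1 was not matched. The letters TGATTTAT, a paired HOX and PBX site, or ATAAATCA on the other strand, were in none of the 14 and in 0.837% of 32851 mouse promoters of that length. The shorter TTTAT or ATAAA occurred at 2 of the 3 start sites of Bcl2l1 and in 37.3% of all promoters. The forkhead letters TGTTTAC or GTAAACA occurred at 1 start site of Bcl2l11 and 1 of Bbc3 and in 3.17% of all promoters. The Bcl2l11 promoter is given with the match in capitals, as the member lower in every construct, and a match is a description of the letters only.
Bcl2l11, chr2:128125788-128126037, plus strand: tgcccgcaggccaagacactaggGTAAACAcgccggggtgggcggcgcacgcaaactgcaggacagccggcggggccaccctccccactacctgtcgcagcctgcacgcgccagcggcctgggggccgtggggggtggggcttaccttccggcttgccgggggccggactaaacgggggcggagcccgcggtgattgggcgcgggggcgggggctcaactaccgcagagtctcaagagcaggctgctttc

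Bbc3 and Pmaip1, whose proteins PUMA and NOXA are the classical BH3-only targets of p53, were each called in a different construct. Bbc3 (chromosome 7 from 16308393 to 16318205) was at 16.7, 19.6, 15.3, 14.7 and 12.7 CPM in Empty and at 22.4, 19.1, 21.8, 19.9 and 21.2 CPM in G-NHX9-midi, with 4 of 5 libraries above Empty (log2 0.40 ± 0.15, adjusted p = 0.0283). That call was lost without Empty replicate 3, 4 or 5 or G-NHX9-midi replicate 1 or 3 (adjusted p of 0.0508 to 0.0995), and without the 3 libraries labelled older (log2 0.27, adjusted p = 0.247). In the other 5 constructs the log2 fold change of Bbc3 lay between -0.23 and 0.28. Pmaip1 (chromosome 18) was at 61.9, 36.6, 46.5, 39.3 and 47.9 CPM in Empty and at 98.4, 64.5, 55.0, 62.1 and 62.2 CPM in G-NHX9 (log2 0.56 ± 0.20, adjusted p = 0.0266). In G-NHX9 4 of 5 libraries exceeded Empty, and replicate 1, the library labelled 11 weeks, stood above the rest. Replicate 1 was also the highest library of Empty, where its label gives 8 weeks. Without G-NHX9 replicate 1 the log2 fold change was 0.38 and not called (adjusted p = 0.145). The call was also lost without Empty replicate 2 (0.0822) or 4 (0.07), and without the 3 libraries labelled older (0.292). With the replicate number as a block, where the numbers pair the libraries, it was kept (log2 0.55, adjusted p = 0.000426). In the other 5 constructs Pmaip1 lay between -0.20 and 0.25 and was not called.

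The mutants were next compared with the full-length fusion to see which members the mutated features moved. G-NHX9-8FA differed from G-NHX9 in 2 members, both higher, where 14.5% of all tested genes were called (6.43% higher and 8.04% lower), and these were the Bcl2a1 copies. Bcl2a1b was at 72.8, 52.1, 48.8, 89.9 and 50.1 CPM in G-NHX9-8FA, above every G-NHX9 library (log2 1.40 ± 0.22, adjusted p = 4.22e-05), and Bcl2a1d at 49.9, 40.9, 35.6, 62.0 and 38.0 CPM, with 4 of 5 above (log2 0.91 ± 0.21, adjusted p = 0.00341). The other members lay between -0.48 and 0.36, and Mcl1, at 0.36, was called without G-NHX9 replicate 1 (adjusted p = 0.0314) or G-NHX9-8FA replicate 5 (0.0228). In G-NHX9-midi 3 members differed from G-NHX9 (beside 19.7% of all genes, 8.50% higher and 11.2% lower), with Bcl2 higher by 0.67 (adjusted p = 0.00185), Bcl2a1b higher by 1.05 (adjusted p = 0.000817) and Bcl2l11 lower by 0.73 (log2 -0.73, adjusted p = 0.000215). No library overlapped for Bcl2 or Bcl2l11, and 4 of 5 G-NHX9-midi libraries exceeded G-NHX9 for Bcl2a1b. Bcl2l1, at -0.24, was called without G-NHX9-midi replicate 4 (adjusted p = 0.0413), and Bcl2a1d, at 0.57, without G-NHX9 replicate 2 (0.0408) or 3 (0.00988) or G-NHX9-midi replicate 2 (0.039).

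The homeodomain mutant G-NHX9-DDNA differed from G-NHX9 in 3 members (beside 22.1% of all genes, 10.7% higher and 11.4% lower). Bcl2 was lower, with every G-NHX9-DDNA library below every G-NHX9 library (log2 -0.65 ± 0.16, adjusted p = 0.00213). Bcl2a1b was higher (48.9, 57.0, 48.5, 42.2 and 36.8 CPM; log2 0.97 ± 0.22, adjusted p = 0.00144) and Pmaip1 lower (63.8, 47.4, 41.1, 38.1 and 36.8 CPM; log2 -0.59, adjusted p = 0.0263). The Pmaip1 call was lost without G-NHX9 replicate 1 (log2 -0.42, adjusted p = 0.149) or G-NHX9-DDNA replicate 3, 4 or 5 (0.0707 to 0.0863). Bcl2l1, at 0.24 (adjusted p = 0.0796), passed with the replicate number as a block (adjusted p = 0.0444), and without G-NHX9 replicate 3 (0.037) or 5 (0.0372).

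The 21FGAA substitutions were introduced into both the full-length and the midi construct, which allows their effect to be compared between these contexts. They leave other FG motifs in the full-length construct and none in the midi construct. In the full-length construct 2 members were called (beside 17.2% of all genes, 8.91% higher and 8.34% lower), namely Bcl2a1b, higher by 0.68 (adjusted p = 0.0283), and Pmaip1, lower (log2 -0.61, adjusted p = 0.0251). The summed Bcl2a1 copies were not called here (log2 0.47, adjusted p = 0.125), and Bcl2a1d was at 0.06. The call of Bcl2a1b was lost without G-NHX9 replicate 4 or 5 or G-NHX9-21FGAA replicate 4 (adjusted p of 0.059 to 0.0835), and that of Pmaip1 without G-NHX9 replicate 1 (log2 -0.42, adjusted p = 0.163) or G-NHX9-21FGAA replicate 2, 4 or 5 (0.0575 to 0.112). With the replicate number as a block both calls were kept (adjusted p = 0.0111 for Bcl2a1b and 0.000171 for Pmaip1). In the midi construct 4 members were called (beside 43.2% of all genes, 21.0% higher and 22.2% lower). Bcl2 was lower by 1.09 in G-NHX9-midi-21FGAA than in G-NHX9-midi (log2 -1.09 ± 0.16, adjusted p = 7.69e-07) and Bbc3 lower by 0.63 (log2 -0.63 ± 0.15, adjusted p = 0.000766). Bcl2l1 was higher by 0.60 ± 0.10 (adjusted p = 8.87e-06) and Bcl2l11 higher by 0.62 ± 0.14 (adjusted p = 0.000464). For these 4 genes no library of one condition overlapped the other. Pmaip1, at -0.45, was called without G-NHX9-midi replicate 5 (adjusted p = 0.0269) or G-NHX9-midi-21FGAA replicate 1 (0.0206).

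The difference between the contexts was itself tested as an interaction, in which 3 members were called beside 12.6% of all tested genes (5.20% with a positive and 7.43% with a negative difference). For Bcl2 the effect of the substitutions was -0.02 ± 0.15 in the full-length and -1.09 in the midi construct, a difference of 1.08 ± 0.22 (adjusted p = 0.000844). For Bcl2l1 the effects were 0.03 and 0.60, a difference of -0.57 ± 0.14 (adjusted p = 0.00566). For Bcl2l11 they were -0.24 and 0.62, a difference of -0.85 ± 0.19 (adjusted p = 0.00271). For these 3 members the effect was called within the midi construct and not within the full-length fusion, and for Bcl2l11 the values had opposite signs. Bbc3 narrowly missed the threshold (difference 0.61 ± 0.21, adjusted p = 0.0506), and it was called without any of G-NHX9 replicates 1, 2 and 3, G-NHX9-midi replicate 4, G-NHX9-21FGAA replicates 4 and 5, or G-NHX9-midi-21FGAA replicates 2 and 3 (adjusted p of 0.0276 to 0.0457). The remaining 6 members had differences between -0.17 and 0.48 and were not called.

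**Figure D3:**
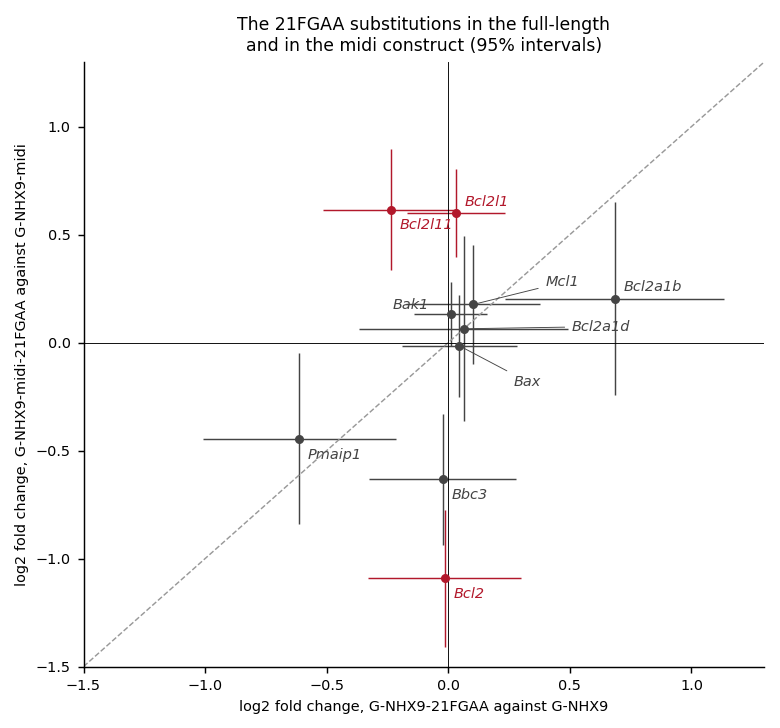
Log2 fold change of each member for the 21FGAA substitutions, added to the full-length construct (horizontal axis) and to the midi construct (vertical axis), with 95% intervals; the dashed line marks equal effects. The members called in the interaction test, in red, lie off the line, with Bcl2 at -0.02 and -1.09, Bcl2l1 at 0.03 and 0.60, and Bcl2l11 at -0.24 and 0.62.

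To see how the prosurvival transcripts were divided, each was expressed as a share of their summed length-scaled level in the same library, with Bcl2a1b and Bcl2a1d combined. Mcl1 had the largest share in all 7 conditions, with means from 58.4% in G-NHX9-8FA to 67.9% in G-NHX9. The Bcl2a1 copies followed, at 31.0% ± 5.23 (SD, n = 5) in Empty, 21.9% ± 5.57 in G-NHX9 and 34.6% ± 7.51 in G-NHX9-8FA. With Bcl2a1a and Bcl2a1c added to the sum, the copies held 38.4%, 27.1% and 41.8% in the same conditions. The means of Mcl1 then ran from 51.9% in G-NHX9-8FA to 63.5% in G-NHX9. Bcl2l1 held 5.82% ± 1.18 in Empty, 7.48% ± 1.79 in G-NHX9 and 4.87% in both G-NHX9-8FA and G-NHX9-midi. With the longest transcript as the length these shares of Bcl2l1 were 9.89%, 12.5%, 8.31% and 8.30%. Bcl2 held the least, with 1.17% ± 0.24 in Empty (0.824% to 1.4997%), 2.64% ± 0.24 in G-NHX9 (2.27% to 2.86%) and 3.36% ± 0.65 in G-NHX9-midi (2.43% to 4.14%). For Bcl2, the libraries of G-NHX9, G-NHX9-midi and G-NHX9-21FGAA (1.81% to 3.09%) lay above all Empty libraries on this scale. A share also moves with the other genes in the sum: in G-NHX9 the level of Bcl2 rose 1.34-fold, while Mcl1 and the Bcl2a1 genes fell.

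**Figure D4:**
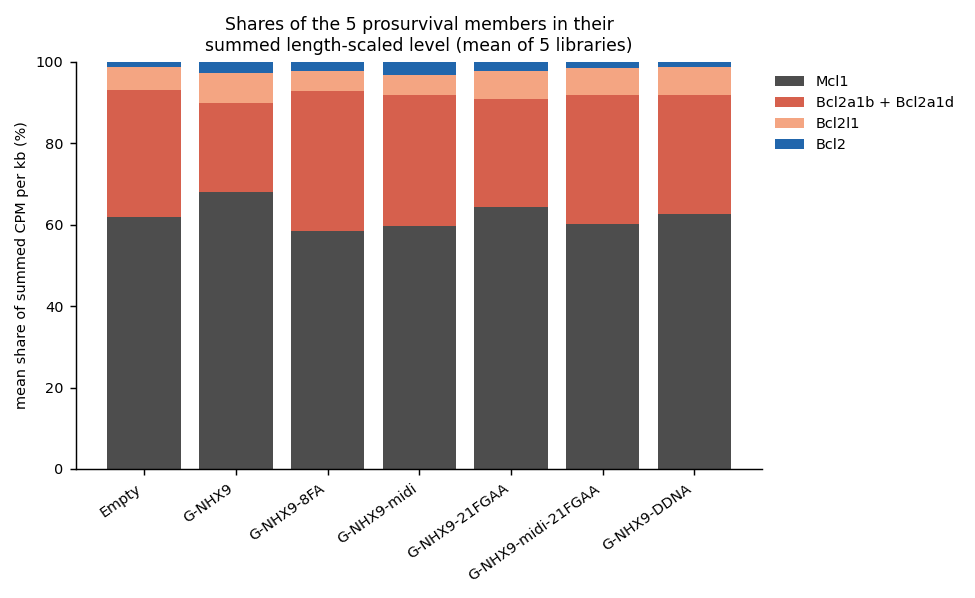
Mean share (%) of Mcl1, Bcl2a1b with Bcl2a1d, Bcl2l1 and Bcl2 in the summed CPM per kb of the prosurvival members, over the 5 libraries of each condition, as bars stacked to 100%. Mcl1 is the largest segment in every condition, and the Bcl2 segment is largest in G-NHX9-midi at 3.36%.

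Further genes of the apoptotic pathway were counted from a list of 35, also chosen with earlier results known, of which 33 were tested. Against Empty, 7 were higher and 9 lower in G-NHX9, 7 and 7 in G-NHX9-8FA, 9 and 6 in G-NHX9-midi, 2 and 7 in G-NHX9-21FGAA, 1 and 6 in G-NHX9-midi-21FGAA, and 2 and 4 in G-NHX9-DDNA, and their median log2 fold change lay between -0.0784 and -0.0032 beside medians of all genes between -0.02 and 0.03. In the same order 48.5%, 42.4%, 45.5%, 27.3%, 21.2% and 18.2% of the listed genes were called, beside 32.1%, 26.6%, 40.5%, 27.1%, 16.9% and 17.2% of all genes. Casp9, the initiator caspase of the apoptosome, was lower in all 6 constructs (log2 -0.49 to -0.32, adjusted p of 0.0001 to 0.0206), like Bcl2l11. Casp2 was higher in 4 of 6 (log2 0.34 to 0.85). The death receptor gene Fas was higher in G-NHX9-8FA (log2 0.99, adjusted p = 9.78e-06) and G-NHX9-midi (0.47, adjusted p = 0.0139) and lower in the other 4 (-0.86 to -0.76), and Tnfrsf1a, a receptor for TNF, was lower in 4 (-0.66 to -0.32). Of the remaining effector and BH3-only genes, Bok fell in G-NHX9 (log2 -1.60), G-NHX9-8FA (-1.98) and G-NHX9-midi (-2.65), Bik rose in G-NHX9 (0.68) and fell in G-NHX9-8FA (-0.996) and G-NHX9-midi (-1.17) from a mean of 0.75 CPM in Empty, and Bmf fell in G-NHX9-8FA (-0.50) and in the constructs with 21FGAA or a mutated homeodomain (-0.90 to -0.77). Bcl2l14 rose in G-NHX9 (1.24), G-NHX9-8FA (1.78) and G-NHX9-midi (1.28) and fell in G-NHX9-midi-21FGAA (-1.17), and Bcl2l15 rose in G-NHX9 (1.04). The copies Bcl2a1a and Bcl2a1c fell in G-NHX9 (-1.47 and -1.37) and G-NHX9-21FGAA (-0.79 and -1.17), as the members Bcl2a1b and Bcl2a1d did, and Bcl2a1c had a mean of only 0.30 CPM in Empty. Bcl2l10 and Hrk were not tested.

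The genes whose profile over the 7 condition means was nearest to a member were found for the 3 members whose means spanned at least 1 on the log2 scale. For Bcl2 they were D16Ertd472e, Abhd17b and Snhg12, with root mean square differences of 0.12, 0.14 and 0.14 between centred log2 profiles. For Bcl2l11 they were C1qtnf6, Thbd and Hfe, at 0.08, 0.08 and 0.09. For Bcl2a1b the nearest was its copy Bcl2a1a at 0.07, followed by Slfn4 and Hnmt at 0.15 each.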

How the data were processed

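Read counts of 35 libraries were used as the authors deposited them, as whole numbers for each of 49671 genes without normalization. The submitters' processing notes name STAR 2.7.0d, HTSeq 0.11.2, DESeq2 and mm10, and the annotation and strand setting of the counting are not given in the sources used here. Libraries were stranded total RNA. Positions and lengths came from GENCODE M21 (GRCm38), which held 99.3% of the identifiers without version, and promoters from RefSeq GRCm38.p6. In R 4.3.3 with edgeR 4.0.16 (limma 3.58.1), genes were filtered by filterByExpr, scaled by TMM, and fitted in 1 quasi-likelihood model with a mean for each condition. SE is the log2 fold change divided by the square root of the F statistic. Comparisons were each construct against Empty, 4 mutants against G-NHX9, G-NHX9-midi-21FGAA against G-NHX9-midi, and the 21FGAA interaction. All 10 members are named. Other pathway genes are named when called in at least 4 of the 6 comparisons against Empty or with an absolute log2 fold change of at least 1, and profile neighbours had a mean of at least 5 CPM. The members and lists were chosen with earlier results of these data known. The model was tested on simulated data.

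A total of 3 counts corresponds to 0.0396 to 0.0951 CPM, which covers counting error only. In all 70 pairs of libraries within a condition the counts differed by more than sampling noise (chi-square at least 22.5 times its degrees of freedom, over genes with at least 10 counts in the pair, a minimum set after the data were seen). Deviations from condition means correlated at 0.23 on average between libraries of the same number and at -0.06 between others. The second value follows largely from the first, because the 5 deviations within a condition cancel out. In 5 of 11 comparisons all 5 pairs exceeded 0.1, and there the number was taken to pair the libraries. These were G-NHX9, G-NHX9-midi-21FGAA and G-NHX9-DDNA against Empty, and G-NHX9-21FGAA and G-NHX9-DDNA against G-NHX9. The main model held no term for this pairing, so SE and p-values given for them are unpaired unless a block is named. For Mcl1 in G-NHX9 against Empty, the adjusted p was 0.000808 in the main model and 9.65e-06 with the block. G-NHX9-21FGAA against Empty missed the limit of 0.1, though both were taken as paired with G-NHX9. Missing the limit therefore does not show that libraries are unpaired. What the number stands for is not given in the labels. Alternatives were library totals without TMM, RLE size factors, no filter, a mean of at least 1 CPM, the replicate number as a block, the level of Xist as a covariate, the compared conditions only, DESeq2 1.42.0, summed Bcl2a1 copies and each library left out. Figures were drawn with matplotlib 3.10.9.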

Additional observations from a re-analysis of the deposited data

Results flagged for a closer look

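Among the 70 sets of 5 libraries (10 members in 7 conditions), 4 held a library that stood apart by Dixon's test at the 95% level, and chance flags about 1 in 20. These were Bcl2 in G-NHX9-DDNA replicate 5 at 48.1 CPM, above 34.2 to 36.8 CPM in the other libraries, and Bcl2l1 in Empty replicate 5 at 139.1 CPM, above 97.1 to 109 CPM. The others were Bcl2a1b in G-NHX9-21FGAA replicate 5 at 27.5 CPM, below 39.1 to 42.6 CPM, and Pmaip1 in G-NHX9 replicate 1 at 98.4 CPM, above 55.0 to 64.5 CPM. The Pmaip1 library is the one without which no comparison with G-NHX9 called Pmaip1, in fits without the replicate number as a block.

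The effect of the 21FGAA substitutions differed between the full-length and the midi construct for Bcl2 (by 1.08 on the log2 scale, adjusted p = 0.000844), Bcl2l1 (-0.57, adjusted p = 0.00566) and Bcl2l11 (-0.85, adjusted p = 0.00271), by the interaction in edgeR's quasi-likelihood test.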

How the results depend on the processing

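Over 120 pairs of member and comparison, 40 were called and 27 of these were called under every alternative. Of 2476 recomputed member values, 65 lost and 60 gained a call, and none that was called changed sign. Numbers of members called moved by over 1.5 times as follows. Without TMM scaling they were 2 for G-NHX9-midi-21FGAA and 1 for G-NHX9-DDNA against Empty and 4 for G-NHX9-8FA against G-NHX9; in G-NHX9-DDNA Mcl1 and Bcl2l11 were lost and Bak1 was gained. With Xist as a covariate 7 calls were gained and none lost. Without a filter they were 0 for G-NHX9-DDNA against Empty and 1 for G-NHX9-21FGAA against G-NHX9, and with only the compared conditions 0 for the latter. With the replicate number as a block they were 2 for G-NHX9-midi-21FGAA against Empty. They were 4 for G-NHX9-8FA and 6 for G-NHX9-midi against G-NHX9, 2 comparisons in which not all pairs exceeded 0.1. In further comparisons that missed this limit the block called Mcl1 in G-NHX9-8FA and Bcl2 in G-NHX9-21FGAA against Empty. It also called Pmaip1 between the midi constructs and Bbc3 in the interaction. Elsewhere the block changed only the calls of Mcl1 and Bcl2l1 given above. With the Bcl2a1 copies summed the number was 1 for G-NHX9-8FA against G-NHX9, where both called copies merge, and 1 for G-NHX9-21FGAA against G-NHX9, where the sum was not called. Without the 3 libraries labelled older, an alternative chosen after seeing the data, it was 4 for G-NHX9, 0 for G-NHX9-midi-21FGAA and 0 for G-NHX9-DDNA against Empty, and 1 for G-NHX9-21FGAA against G-NHX9. The cause of these shifts was not tested, except that fits with fewer libraries have fewer degrees of freedom.

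Leaving out each library in turn gave 5 to 7 members for G-NHX9, 3 to 3 for G-NHX9-8FA, 4 to 6 for G-NHX9-midi, 4 to 6 for G-NHX9-21FGAA, 1 to 1 for G-NHX9-midi-21FGAA and 0 to 2 for G-NHX9-DDNA against Empty. Against G-NHX9 it gave 2 to 3 for G-NHX9-8FA, 3 to 4 for G-NHX9-midi, 0 to 2 for G-NHX9-21FGAA and 2 to 4 for G-NHX9-DDNA, with 4 to 5 between the midi constructs and 3 to 4 in the interaction. With at least 415 reads for each member in each library, the spread between libraries and not depth limits these comparisons.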

Other observations

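The ratio of Bcl2 to Bcl2l11 CPM within a library, a quantity chosen after the values were seen, was 0.557 ± 0.181 (SD, n = 5) in Empty, 0.635 ± 0.102 in G-NHX9-DDNA and 0.855 ± 0.259 in G-NHX9-midi-21FGAA. It was 1.03 ± 0.194 in G-NHX9, 1.19 ± 0.124 in G-NHX9-21FGAA, 1.497 ± 0.306 in G-NHX9-8FA and 2.71 ± 0.476 in G-NHX9-midi. The lowest library of each of these last 4 conditions (0.859, 1.10, 1.08 and 2.07) exceeded the highest Empty library (0.744). Since the ratio is built from 2 genes already seen to move, no test was made. CPM is not scaled by length, so the ratio compares conditions and not the levels of the 2 genes with each other.

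Bcl2a1b took 61.7% ± 2.10 (SD, n = 5) of the reads of Bcl2a1b and Bcl2a1d in Empty and 57.7% to 60.8% on average in 5 of the constructs. In G-NHX9 it took 49.4% ± 0.94, and its 5 libraries (48.3% to 50.9%) lay below all Empty libraries (58.0% to 63.3%). How reads shared between the copies were counted is not given in the sources used here, and its part in this share was not tested.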
